A study of Mus musculus with 8 samples.

Results

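A pair of cultures of one line that both lack feeders were compared: N33 ESCs kept in serum on gelatin (−F, named G in the labels) and N33 ESCs kept in N2B27 medium with 2i (NB2i). The labels give the strain of this ESC line as C57BL/6 and the study's methods as C57BL/6J. The samples were taken by their labels, 2 replicates of −F and 2 of NB2i, which are 4 of the 8 samples of the series, and all 20278 genes listed in the files were followed by their expected count. Both cultures received LIF at 1000 U/ml. The −F cells grew in knockout DMEM with 20% fetal bovine serum. The NB2i cells had no serum and grew in N2B27, a defined mixture of DMEM/F12 and Neurobasal with the N2 and B27 supplements, on poly-L-ornithine and laminin, with 3 µM CHIR99021 and 1 µM PD0325901. The other 4 samples of the series, grown on mouse embryonic fibroblasts (MEFs) in serum without 2i (F) or with 2i (F2i), served as a second comparison of 2i. These 4 also received 20% fetal bovine serum and LIF at 1000 U/ml, and the doses of 2i in F2i were not given in the sources used here. Medium, serum, coating and 2i all changed together between −F and NB2i, so their effects cannot be told apart. All samples were of one cell line.

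PD0325901 blocks MEK, the kinase that activates ERK, and CHIR99021 blocks GSK3, the kinase that marks β-catenin for destruction. The pair is called 2i, and with LIF, which acts through STAT3, it holds mouse ESCs in a naive state that resembles the epiblast before implantation. Serum brings lipids, growth factors of the BMP family and agents that activate RhoA and actin assembly. ESCs in serum and LIF are known to be heterogeneous, to show ERK activity and to carry more DNA methylation than ESCs in 2i.

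The 4 libraries had 20434574 to 20664488 expected counts, and the 8 ESC markers examined were present in each of them at 39.5 to 2280 FPKM. FPKM is the level of a gene per length and per depth, in fragments scaled to transcript length and to library size. Genes at 1 FPKM or more in both replicates numbered 11739 in −F and 11339 in NB2i. Fibroblast markers were low on both sides. The 20 listed summed to 24.5 and 23.8 FPKM in −F and 6.24 and 5.37 FPKM in NB2i, against 294 and 309.7 FPKM in F and 734 and 718 FPKM in F2i. Lum and Vcam1, both of that list, were not listed in any of the 4 feeder-free samples, where genes not listed were taken as 0. These are bulk samples, so fewer cells of a kind and less RNA per cell cannot be told apart. The replicates are described as biological duplicates, and with 2 samples a group an exact permutation test cannot go below p = 0.3333. The sources used here do not say whether the 2 samples of a group came from separate cultures or passages. The p-values given here come from a model fitted across all genes and all 8 samples. They weigh each difference against the spread between replicates.

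NB2i and −F differed in a large part of the transcriptome. Of 15287 genes tested, 1696 (11.1%) were called higher in NB2i and 2456 (16.1%) lower, at a change of at least 2-fold and a Benjamini-Hochberg adjusted p under 0.05 by the quasi-likelihood test of edgeR. A change of at least 8-fold was found for 302 genes upward and 725 downward, and the median log2 fold change of all tested genes was 0.0099. Between replicates the spread was small, with a common biological coefficient of variation of 3.254%, so that 11067 genes had an adjusted p under 0.05 at any size. Changes under 2-fold were therefore not called, however small their p.

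**Figure D1:**
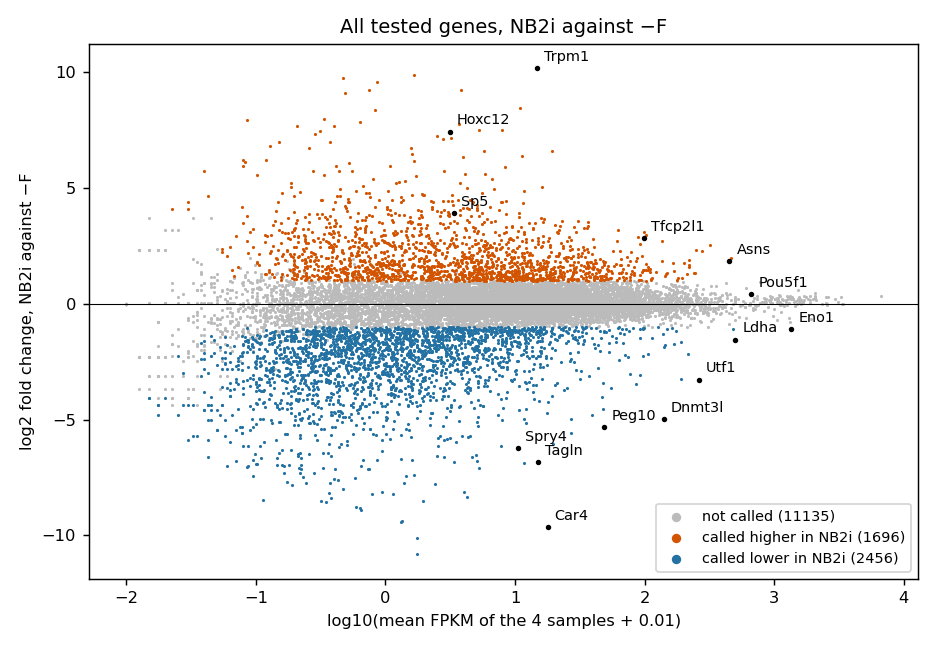
Log2 fold change of NB2i against −F (vertical axis) plotted against the log10 of the mean FPKM of the 4 samples plus 0.01 (horizontal axis), 1 point a gene. Orange points are the 1696 genes called higher in NB2i, blue points the 2456 called lower and grey points those not called, and of the labelled genes (black) Trpm1 lies highest and Car4 lowest.

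Among genes of at least 5 FPKM in the higher culture, the 10 largest rises were in genes that were almost silent in serum. A ranking by ratio favours such genes. Trpm1, a cation channel of melanocytes and retina (chr7:64153835-64269772, mm10), had 0.03 and 0.02 FPKM in −F and 29.9 and 29.1 FPKM in NB2i. Counts in −F were too few for a firm ratio, and the ratio of counts was 1255 with a 95% counting interval of 429 to 6090. Kiss1, which encodes the kisspeptin hormone, was not listed in either −F replicate, which was taken as 0, and had 8.17 and 7.19 FPKM in NB2i, at least 25-fold higher against a floor of 3 counts per library. Adh1, an alcohol dehydrogenase that can oxidize retinol, rose from 0.07 and 0.04 to 10.6 and 10.2 FPKM. Others among the 10 largest rises were Rerg, a Ras-like GTPase with 7.28 and 7.28 FPKM in NB2i, Fxyd2, a subunit of the sodium pump with 16.1 and 15.5 FPKM, Ppp1r14d, a phosphatase inhibitor with 38.3 and 38 FPKM, and the homeobox genes Nkx1-2 and Hoxc12. In each of these genes the NB2i replicates lay close together. Only genes without overlap between the replicates of the 2 cultures were ranked, so their separation is no result of its own.

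The 10 largest falls by the same limit included enzymes, secreted factors and transcription factors. Car4, a membrane-bound carbonic anhydrase (chr11:84957754-84966054), had 36.2 and 35 FPKM in −F and 0.04 and 0.04 FPKM in NB2i. Its ratio of counts was 911, with a 95% counting interval of 252 to 7531. The neuroendocrine factor Insm1 fell from 9.01 and 9.41 to 0.09 and 0.07 FPKM, the guidance cue Sema3e from 6.5 and 6.87 to 0.06 and 0.06 FPKM, and Hand1, a bHLH factor of trophoblast and heart, from 6.07 and 5.16 to 0.08 and 0.03 FPKM. Nrsn1, Tmem54 and AU015836 were at 8.9 and 8.15, 7.93 and 8.23 and 23.6 and 22.6 FPKM in −F and at no more than 0.2 FPKM in either NB2i replicate. With limits of 1 FPKM in both replicates of one culture and under 0.1 FPKM in both of the other, 75 genes were on in −F and off in NB2i, and 38 genes the reverse.

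By level rather than by ratio, the genes with the greatest differences were highly expressed ones, which a ranking by level favours. Spp1 (osteopontin) rose from 196 and 192 to 750.5 and 719 FPKM, the brain creatine kinase Ckb from 99.9 and 95.5 to 559 and 523 FPKM, and the matrix protein Sparc from 99.2 and 95.1 to 456 and 457 FPKM. Log2 fold changes were 1.99 ± 0.044 (SE) for Spp1, 2.54 ± 0.049 for Ckb and 2.30 ± 0.043 for Sparc. Going down were Tmsb4x, which encodes the actin-binding thymosin β4, from 370.3 and 331 to 34.1 and 35.7 FPKM, and the glycolytic enzymes described further on.

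Expression of the core pluripotency factors was kept, while Tfcp2l1, Tbx3, Prdm14, Nr5a2 and Klf4 rose and Utf1 and Dppa2 fell. Of 22 genes tested, 7 were called higher and 5 lower, beside 11.1% and 16.1% of all genes, with a median log2 fold change of 0.43. Pou5f1 (Oct4) had 606 and 569 FPKM in −F and 765 and 736 FPKM in NB2i, and Sox2 had 265 and 256 FPKM in −F and 215 and 215 FPKM in NB2i. Nanog had 208 and 199 FPKM in −F and 295 and 304 FPKM in NB2i, and Esrrb, an orphan nuclear receptor, had 125 and 127 FPKM in −F and 214 and 211 FPKM in NB2i. None of these 4 passed the 2-fold limit. Tfcp2l1, a factor downstream of LIF that sustains self-renewal, rose from 24.2 and 26.7 FPKM to 170.4 and 175 FPKM (log2 fold change 2.83 ± 0.055, adjusted p = 6.03e-21). Tbx3, a T-box factor of the naive network, rose from 6.7 and 7.22 to 65 and 65.9 FPKM, 9.85-fold. Prdm14, which represses FGF signalling and DNA methyltransferases, rose from 4.47 and 4.63 to 20.5 and 20.1 FPKM, and the nuclear receptor Nr5a2 from 6.68 and 7.21 to 31.2 and 30.8 FPKM. Klf4 rose 2.79-fold, from 54.2 and 54.7 to 146 and 144 FPKM. All these replicates were apart without overlap.

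Utf1, a chromatin protein confined to pluripotent cells, fell in contrast from 497 and 459 FPKM in −F to 47.5 and 46.6 FPKM in NB2i (log2 fold change −3.27 ± 0.052, adjusted p = 3.27e-22). Dppa2, which binds the promoters of developmental genes, fell from 45.5 and 45.7 to 7.74 and 8.97 FPKM. Both remained detected in every NB2i sample. Among the 18 tested genes of the LIF receptor and STAT3 list, 2 were called higher and 2 lower, near the shares of all genes (11.1% and 16.1%). Socs3, a direct STAT3 target that feeds back on LIF signalling, had 56.6 and 54.3 FPKM in −F and 48.8 and 46.7 FPKM in NB2i, a log2 fold change of −0.15 ± 0.045. LIF was present on both sides.

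Feedback inhibitors and early response genes of the MEK-ERK pathway fell, and none of them was called higher. Of 28 genes tested, 18 were called lower and 0 higher, beside 16.1% and 11.1% of all genes. The median log2 fold change was −2.04 against 0.0099 for all genes. Spry4, which blocks signalling from FGF receptors to Ras, had 20.5 and 21.2 FPKM in −F and 0.23 and 0.3 FPKM in NB2i (log2 fold change −6.22 ± 0.11, adjusted p = 1.42e-21). Dusp6, the phosphatase that removes the activating phosphates of ERK, had 34.5 and 33.9 FPKM in −F and 1.76 and 1.64 FPKM in NB2i, 19.2-fold lower. Dusp4, a nuclear phosphatase of the same family, fell from 14.1 and 14.2 to 0.52 and 0.44 FPKM. The ETS factor Etv4 fell from 52.8 and 52.2 to 1.63 and 1.55 FPKM. In each of these genes both NB2i samples were far below both −F samples. Myc, which drives growth genes, fell from 10.5 and 11.9 to 0.95 and 0.89 FPKM, and Phlda1 from 7.82 and 6.52 to 0.89 and 1.17 FPKM.

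Egr1, the classic immediate early gene of ERK, had 8.58 and 8.36 FPKM in −F and 1.58 and 1.62 FPKM in NB2i. Its mean in F was 92.2 FPKM, and the part of feeder RNA in that mean was not tested. Not all members moved. Ccnd1, the D-type cyclin, had 41.7 and 40.9 FPKM in −F and 34.5 and 32.8 FPKM in NB2i, a log2 fold change of −0.23 ± 0.047, and was not called. In F2i against F, where 2i was added and serum and feeders were kept, 14 of the 28 were called lower and 0 higher, beside 7% and 6.44% of all genes.

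**Figure D2:**
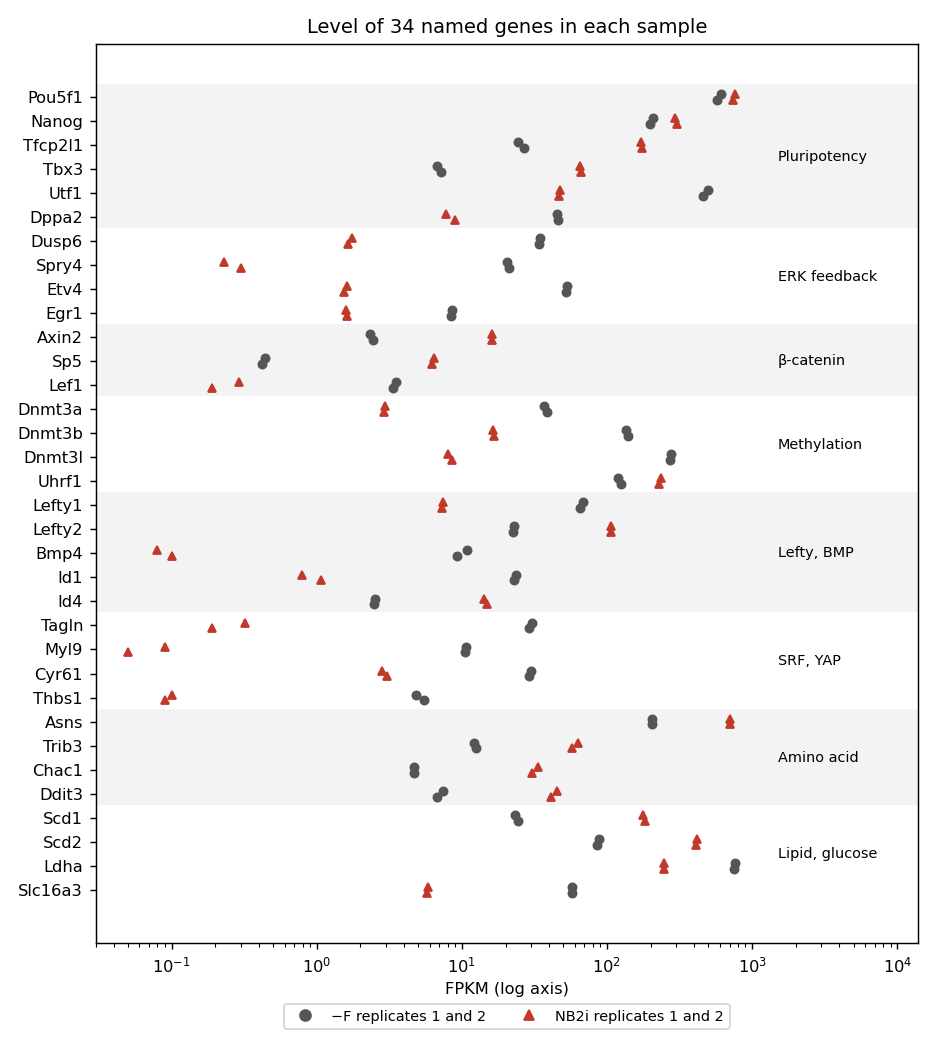
FPKM on a log axis of named genes, grouped by pathway, in the 2 −F replicates (grey circles) and the 2 NB2i replicates (red triangles). Replicates nearly coincide, and among the ERK feedback genes all 4 shown lie lower in NB2i, with Spry4 at 0.23 and 0.3 FPKM.

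Targets of β-catenin, which GSK3 inhibition stabilizes, were split. Of 24 genes tested, 7 were called higher and 11 lower, beside 11.1% and 16.1% of all genes. Axin2, a negative feedback gene that is widely used as a readout of Wnt signalling, rose from 2.32 and 2.46 FPKM in −F to 16.2 and 16 FPKM in NB2i (log2 fold change 2.82 ± 0.073, adjusted p = 6.64e-19). Sp5, a zinc finger repressor, rose from 0.44 and 0.42 to 6.44 and 6.18 FPKM, the homeobox gene Cdx1 from 0.93 and 0.98 to 8.82 and 8.72 FPKM, and Notum, a secreted enzyme that inactivates Wnt proteins, from 2.35 and 2.08 to 19.6 and 17.7 FPKM.

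Lef1, itself a partner of β-catenin on DNA, went the other way, from 3.53 and 3.38 FPKM in −F to 0.29 and 0.19 FPKM in NB2i (log2 fold change −3.75 ± 0.17, adjusted p = 9.68e-15). Bmp4 fell from 10.8 and 9.28 to 0.08 and 0.1 FPKM and Nkd2, an inhibitor of Dishevelled, from 2.43 and 2.67 to 0.4 and 0.36 FPKM. Members of the list were thus called in both directions.

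In the machinery of DNA methylation, the 3 genes of the de novo methyltransferase complex all fell. Dnmt3a had 36.6 and 38.4 FPKM in −F and 2.96 and 2.9 FPKM in NB2i, 11.5-fold lower. Dnmt3b had 135 and 140.4 FPKM in −F and 16.5 and 16.6 FPKM in NB2i, 8.06-fold lower. Dnmt3l, the catalytically inactive partner of both (chr10:78042287-78063622), had 274 and 272 FPKM in −F and 8.01 and 8.55 FPKM in NB2i, 31.5-fold lower (log2 fold change −4.98 ± 0.055, adjusted p = 3.19e-24). Uhrf1, which brings Dnmt1 to newly replicated DNA, had 118 and 124 FPKM in −F and 237 and 229.7 FPKM in NB2i. Its log2 fold change of 1.02 ± 0.043 lay at the 2-fold limit, and the call was lost in 9 alternatives, among them DESeq2 and the fit without −F replicate 1. Tet2, a dioxygenase that removes methylation, had 11.9 and 12.8 FPKM in −F and 14 and 14.3 FPKM in NB2i and was not called. Gadd45a and Gadd45b fell 3.39-fold and 2.38-fold. In all, 7 of 20 genes were called lower and 1 higher, beside 16.1% and 11.1% of all genes.

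Germline genes whose promoters are known to be silenced by methylation did not rise as a list. Of 25 tested, 1 was called higher and 12 lower, beside 11.1% and 16.1% of all genes, with a median log2 fold change of −1.06. Sycp3, a protein of the meiotic chromosome axis, fell from 15.1 and 13.8 FPKM to 3.03 and 3.1 FPKM, Sycp1 from 2.22 and 2.21 to 0.19 and 0.37 FPKM and Tdrd1, a piRNA pathway protein, from 1.15 and 1.24 to 0.05 and 0.04 FPKM. Dazl, an RNA-binding protein of germ cells, had 3.07 and 3.27 FPKM in −F and 2.58 and 2.97 FPKM in NB2i and was not called (log2 fold change −0.12 ± 0.10). The one called higher was Rpl10l, at the 2-fold limit with a log2 fold change of 1.02 ± 0.11, a retrogene whose close similarity to Rpl10 makes its count uncertain. DNA methylation itself was not measured in these files.

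Genes of the formative and primed epiblast, the states that follow naive pluripotency, fell more often than they rose. Of 23 tested, 12 were called lower and 3 higher, beside 16.1% and 11.1% of all genes, and the median log2 fold change was −1.62. Tcf15, a bHLH factor of cells primed for differentiation, fell from 36.1 and 32.3 to 1.09 and 1.36 FPKM, and the POU factor Pou3f1 (Oct6) from 14.9 and 14.6 to 0.99 and 0.63 FPKM. Fgf5, the standard primed marker, was scarce in both cultures, at 0.73 and 0.54 FPKM in −F and 0.14 and 0.04 FPKM in NB2i. Otx2, which drives the exit from the naive state, was not lower: it had 13.3 and 12.4 FPKM in −F and 17 and 17.5 FPKM in NB2i, a log2 fold change of 0.49 ± 0.068 that did not pass the 2-fold limit. Foxd3 rose 2.43-fold and Fst, which encodes the activin antagonist follistatin, rose from 0.49 and 0.57 to 9.7 and 9.49 FPKM.

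Markers of other lineages moved in both directions, and most were scarce. Shares over all genes were 11.1% called higher and 16.1% called lower. The 18 listed mesendoderm genes summed to 16.7 and 14.9 FPKM in −F and 15.4 and 15.9 FPKM in NB2i, and the 24 listed neural genes to 133 and 132 FPKM in −F and 140.0 and 139 FPKM in NB2i. In the mesendoderm list 3 of 14 tested genes were called higher and 4 lower, with Gsc at 0.54 and 0.29 FPKM in −F and 2.86 and 3.47 FPKM in NB2i. In the neural list 3 of 16 were called higher and 5 lower: the homeobox gene Otx1 rose from 0.27 and 0.27 to 1.65 and 1.71 FPKM and the adhesion molecule Ncam1 from 1.05 and 1.14 to 5.88 and 5.64 FPKM, while the bHLH factor Neurod1 fell from 16.1 and 14.9 to 0.46 and 0.45 FPKM. Sox1, the defining neural precursor factor, had 1.35 and 1.62 FPKM in −F and 1.59 and 1.66 FPKM in NB2i and was not called. Of the 24 neural genes, 3 were not listed in either NB2i replicate.

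The trophoblast list fell in sum from 358 and 344 FPKM in −F to 177 and 169.7 FPKM in NB2i. In it 2 of 16 were called higher and 7 lower, beside 11.1% and 16.1% of all genes. Peg10, an imprinted gene derived from a retrotransposon that placenta requires, fell from 97.4 and 94.2 to 2.34 and 2.24 FPKM. Gata2, a zinc finger factor of trophoblast, rose from 2.18 and 1.89 to 10 and 8.97 FPKM, and Tead4, the TEAD factor that specifies it, from 7.4 and 9 to 25.2 and 23.8 FPKM. For primitive endoderm, 6 of 18 were called higher and 8 lower. Its defining factor Gata6 was at 0.7 and 0.5 FPKM in −F and 0.17 and 0.12 FPKM in NB2i. The list summed to 815 and 782 FPKM in −F and 1662 and 1627 FPKM in NB2i, and Sparc, described above, is one of its members. The endocytic receptor Lrp2 fell from 6.05 and 5.46 to 0.27 and 0.22 FPKM.

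Lefty1 and Lefty2 changed in opposite directions. Lefty1 and Lefty2 are neighbouring genes that encode Nodal inhibitors and are both Nodal targets. Lefty1 had 68.2 and 65.7 FPKM in −F and 7.36 and 7.27 FPKM in NB2i (log2 fold change −3.12 ± 0.061, adjusted p = 6.26e-21). Lefty2 had 22.9 and 22.5 FPKM in −F and 107 and 107 FPKM in NB2i (log2 fold change 2.31 ± 0.044, adjusted p = 5.16e-21). Lefty1 was thus the higher of the pair in serum and Lefty2 the higher in NB2i, in both replicates of each. Inhbb, an activin subunit, fell from 4.77 and 4.95 to 0.37 and 0.36 FPKM and Skil, a SMAD corepressor, from 31.1 and 32.7 to 5.85 and 6.3 FPKM, while the proprotein convertase Pcsk6 rose from 10.6 and 12.1 to 46.6 and 43.3 FPKM. The Nodal and activin list held 3 genes called higher and 6 called lower out of 18, beside 11.1% and 16.1% of all genes.

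Id genes, the direct targets of BMP-activated SMADs, fell with one exception. Id1 had 23.4 and 22.9 FPKM in −F and 0.79 and 1.07 FPKM in NB2i, 23.6-fold lower (adjusted p = 1.04e-16). Id3 fell from 13.8 and 12.2 to 2.31 and 1.65 FPKM and Id2 from 19.4 and 16.9 to 5.81 and 6.11 FPKM. Id4 rose from 2.52 and 2.49 to 14.3 and 14.8 FPKM, 6.09-fold. The ligand Bmp8b fell with Bmp4, from 3.1 and 2.54 to 0.18 and 0.07 FPKM. Of 25 genes of the BMP list, 4 were called higher and 8 lower, beside 11.1% and 16.1% of all genes. Of the 8, 5 had a mean of at least 1 FPKM in −F. The list median was −0.276 as fitted and 0.0276 with 10 counts in every sample.

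Targets of serum response factor (SRF) and YAP and contractile genes, which respond to serum and to actin tension, fell or stayed. Of 28 tested, 16 were called lower and 0 higher, beside 16.1% and 11.1% of all genes, with a median log2 fold change of −1.75. Tagln, an actin-binding protein of smooth muscle, had 30.3 and 29.1 FPKM in −F and 0.32 and 0.19 FPKM in NB2i (log2 fold change −6.83 ± 0.14, adjusted p = 8.96e-21). Myl9, the regulatory light chain of non-muscle and smooth muscle myosin, had 10.6 and 10.5 FPKM in −F and 0.09 and 0.05 FPKM in NB2i. Cnn1, calponin, had 3.52 and 3.43 FPKM in −F and was not listed in either NB2i replicate, at least 45.8-fold lower against a floor of 3 counts per library. Acta2 fell from 4.89 and 4.96 to 0.06 and 0.04 FPKM and Thbs1, thrombospondin, from 4.82 and 5.5 to 0.1 and 0.09 FPKM. In these genes RNA was close to absent in NB2i. The YAP target Cyr61 fell from 30 and 29.2 to 2.82 and 3.05 FPKM and Ctgf from 21.6 and 19.5 to 8.18 and 8.78 FPKM, and both were still expressed in NB2i. Several of these genes also mark fibroblasts, whose list fell from a sum of 24.5 and 23.8 FPKM to 6.24 and 5.37 FPKM. Of its 20 genes 12 were called lower and 1 higher, beside 16.1% and 11.1% of all genes. Only 5 of those 12 had a mean of at least 1 FPKM in −F. The part of such cells in the fall was not tested.

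SRF binds the CArG box, a motif of 10 bases with 2 C, 6 of A or T and 2 G, searched on both strands, on which it reads the same. In RefSeq promoters (GRCm38.p6, 250 bases before to 50 after a start), 7 of the 22 members with a promoter held one, or 31.8%, against 1.81% of all 27025 genes. Of these 7, 4 were called lower (Acta1, Cnn2, Fhl2 and Myl9), and Actg1, Filip1l and Vcl were not called. A match is a description of letters and not of binding. The stretches around the motif, in capitals, are shown for 3 of those called lower, Acta1 and Cnn2 having been picked for the match after their values were seen. Acta1 had 5.23 and 4.77 FPKM in −F and 0.03 and 0.12 FPKM in NB2i, and Cnn2 had 76.8 and 71 FPKM in −F and 17 and 17.4 FPKM in NB2i. Motifs began −161, −73 and −56 bases from the start in Myl9 (chr2:156775278-156775337, plus strand), Acta1 (chr8:123894814-123894873, minus strand) and Cnn2 (chr10:79988519-79988578, plus strand).
Myl9: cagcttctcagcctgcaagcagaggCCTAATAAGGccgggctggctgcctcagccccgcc
Acta1: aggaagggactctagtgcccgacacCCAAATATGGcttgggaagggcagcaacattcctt
Cnn2: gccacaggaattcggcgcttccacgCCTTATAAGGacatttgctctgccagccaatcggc

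The amino acid response was raised in NB2i. This response is driven by ATF4, a factor made when amino acids are short or proteins misfold, and its targets import and synthesize amino acids. Of 24 genes tested, 13 were called higher and 0 lower, beside 11.1% and 16.1% of all genes, with a median log2 fold change of 1.05. Asns, asparagine synthetase, had 204 and 203 FPKM in −F and 701 and 699 FPKM in NB2i (log2 fold change 1.85 ± 0.04, adjusted p = 5.26e-20). The stress factor Ddit3 (CHOP) had 7.37 and 6.71 FPKM in −F and 45.4 and 41.3 FPKM in NB2i. Trib3, a pseudokinase that restrains ATF4, rose from 12.2 and 12.5 to 62.7 and 57.5 FPKM, and Chac1, which breaks down glutathione, from 4.66 and 4.66 to 33.7 and 30.5 FPKM. Both replicates of NB2i were above both of −F in each. The serine synthesis enzymes Phgdh, Psat1 and Psph, picked after their values were seen, had log2 fold changes of −0.11, 0.61 and 0.65 and were not called. In F2i against F, 2 of the 24 were called higher and 1 lower, beside 6.44% and 7% of all genes.

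ATF4 elements were searched as TGATGCAA and TGATGAAA on both strands of the same promoters. They were present in 6 of 21 members with a promoter, 28.6%, against 2.16% of all genes. No SRF or YAP member held one, and no member of the amino acid list held a CArG box. With 2.16% and 1.81% of all genes holding a match, lists of this size would often hold none. Each list was drawn up around targets of its factor, so its own share of matches is no independent result. Of these 6, 5 were called higher (Asns, Atf3, Chac1, Slc1a4 and Slc7a11) and Pycr1 was not called. The stretches of 3 are printed with the element in capitals. Atf3, an ATF4 target and itself a stress factor, was picked for the match after its values were seen, 1.01 and 0.91 FPKM in −F and 5.99 and 5.32 FPKM in NB2i. The element began −23, −193 and −110 bases from the start in Asns (chr6:7693200-7693257, minus strand), Chac1 (chr2:119351024-119351081, plus strand) and Atf3 (chr1:191183411-191183468, minus strand), and in Chac1 and Atf3 the printed strand shows its reverse complement.
Asns: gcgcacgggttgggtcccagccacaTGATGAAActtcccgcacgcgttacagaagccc
Chac1: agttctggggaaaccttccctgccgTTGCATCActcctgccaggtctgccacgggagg
Atf3: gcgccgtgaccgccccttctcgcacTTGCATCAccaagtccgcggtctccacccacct

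In the fatty acid synthesis list 7 of 20 were called higher and 2 lower, beside 11.1% and 16.1% of all genes. Scd1, which makes oleate from stearate, had 23.3 and 24.4 FPKM in −F and 177 and 183 FPKM in NB2i (log2 fold change 2.99 ± 0.045, adjusted p = 1.99e-22). Scd2, its paralog, had 87.5 and 85.7 FPKM in −F and 419.7 and 409 FPKM in NB2i. Fads1, which desaturates polyunsaturated chains, rose from 23.1 and 22.6 to 74 and 76.3 FPKM. Fasn, the fatty acid synthase, did not follow them, at 62.4 and 66.5 FPKM in −F and 68 and 65.3 FPKM in NB2i, and the carbohydrate-sensing factor Mlxipl fell 2.43-fold.

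Of 28 cholesterol genes 6 were called higher and 0 lower, beside 11.1% and 16.1% of all genes, with a median log2 fold change of 0.77. The late enzyme Ebp rose from 8.24 and 8.35 to 34.5 and 31.7 FPKM. Hmgcs1, an enzyme of the early pathway, had 108 and 108 FPKM in −F and 88.5 and 90.6 FPKM in NB2i, a log2 fold change of −0.20 ± 0.041. In F2i against F no member was called higher and 1 lower, beside 6.44% and 7% of all genes.

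Genes of glucose uptake and lactate output were among the glycolytic genes that fell. Of 25 tested, 8 were called lower and 1 higher, beside 16.1% and 11.1% of all genes. Slc16a3, the lactate exporter MCT4, had 57.3 and 57.6 FPKM in −F and 5.81 and 5.74 FPKM in NB2i, 9.44-fold lower (adjusted p = 1.20e-21). Pdk1, which keeps pyruvate out of mitochondria, fell from 53 and 52.5 to 6.94 and 6.77 FPKM, and Ldha, lactate dehydrogenase A, from 762 and 752 to 248 and 249 FPKM. The glucose transporter Slc2a1 fell from 267 and 255 to 75.3 and 73.2 FPKM, whereas Slc2a3 had 365 and 360.0 FPKM in −F and 361 and 363 FPKM in NB2i. Pgk1 and Eno1, among the most abundant messages, fell 2.13-fold and 2.11-fold, and processed copies of these genes make their counts less certain. Hexokinase Hk1 was the one called higher, from 20.2 and 21.1 to 61.1 and 58.4 FPKM.

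Matrix and adhesion genes moved in both directions. Of 29 tested, 8 were called higher and 13 lower, beside 11.1% and 16.1% of all genes. The type IV collagen genes Col4a1 and Col4a2, which share a promoter region, fell from 14.9 and 16.2 to 0.64 and 0.67 FPKM and from 9.02 and 9.55 to 0.45 and 0.33 FPKM. Nidogen (Nid1), which links collagen IV to laminin, rose from 17 and 16.2 to 107 and 104 FPKM. Fibronectin (Fn1) rose from 98.6 and 95.8 to 358 and 334 FPKM, laminin α1 (Lama1) from 8.12 and 7.64 to 21.1 and 20.4 FPKM, and vimentin (Vim) from 19.8 and 16 to 58.4 and 60.2 FPKM. Laminin β1 (Lamb1) had 46.1 and 48.8 FPKM in −F and 23.3 and 22 FPKM in NB2i, called lower just past the 2-fold limit.

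HOX genes rose from very low levels. Of the 24 tested of 39, 12 were called higher and 0 lower, beside 11.1% and 16.1% of all genes. Only 4 of the 12 reached a mean of 1 FPKM in NB2i. The 39 summed to 4.5 and 4.7 FPKM in −F, which left little room for a fall. A gene entered the fit with 10 counts in any 2 of the 8 samples, so some could enter through NB2i or the feeder samples alone. The median log2 fold change was 1.63 as fitted, 1.32 with 10 counts in every sample and 0.577 without the filter. Of 8 tested genes of the HoxC cluster, 6 were called, against 1 of 6 in HoxA, 3 of 6 in HoxB and 2 of 4 in HoxD. Hoxc12 had 0.06 and 0 FPKM in −F and 6.01 and 6.41 FPKM in NB2i, with a ratio of counts of 218 and a 95% counting interval of 38.8 to 8664, and Hoxc4 had 0.22 and 0.52 FPKM in −F and 5.13 and 4.65 FPKM in NB2i. In F2i against F 12 were called higher and 0 lower, beside 6.44% and 7% of all genes. Feeder RNA is present in F and F2i, with the fibroblast sums given above, and its part in these calls was not tested.

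Among cell cycle inhibitors, Cdkn1a (p21) rose from 38 and 34.1 to 138 and 137 FPKM and Cdkn2a, the locus of p16 and p19ARF, from 8.21 and 7.81 to 34.7 and 36.3 FPKM. Cdkn1c (p57), an imprinted gene, fell from 21.3 and 22.2 to 2.05 and 1.97 FPKM and Ccnd2 from 1.32 and 1.24 to 0.19 and 0.28 FPKM. Of 24 genes of the cell cycle list 4 were called higher and 5 lower, beside 11.1% and 16.1% of all genes, so the list as a whole was near the background. Igf2, a fetal growth factor, and H19, the noncoding RNA of the same imprinted domain, were picked after their values were seen. Igf2 fell from 55 and 50.6 to 1.07 and 1.09 FPKM and H19 from 39.1 and 37.8 to 0.53 and 0.58 FPKM.

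Of 20 retinoid genes 4 were called higher and 9 lower, beside 11.1% and 16.1% of all genes. Of the 9, 5 had a mean of at least 1 FPKM in −F. The list median was −0.532 as fitted and 0.05 with 10 counts in every sample. Both cellular retinoic acid binding proteins fell, Crabp2 from 8.18 and 8.02 to 0.5 and 0.55 FPKM and Crabp1 from 15.2 and 14.6 to 5.95 and 6.42 FPKM, as did the receptor Rarg, from 47.3 and 46.2 to 3.61 and 3.61 FPKM, and the target Stra8, from 3.66 and 3.29 to 0.22 and 0.3 FPKM. Aldh1a3, which makes retinoic acid, rose from 0.04 and 0.16 to 8.15 and 7.55 FPKM, and the homeobox gene Meis2 from 0.14 and 0.16 to 1.9 and 2.48 FPKM. Among metal genes the iron exporter ferroportin, Slc40a1, fell from 8.62 and 8.88 to 0.13 and 0.19 FPKM and the zinc and iron importer Slc39a14 from 20.4 and 21 to 0.74 and 0.88 FPKM. The manganese exporter Slc30a10 rose from 0.11 and 0.14 to 1.94 and 2.08 FPKM and the transferrin receptor Tfrc had 79.5 and 76.3 FPKM in −F and 63.3 and 67.6 FPKM in NB2i and was not called. Of 18 metal genes 1 was called higher and 4 lower, beside 11.1% and 16.1% of all genes. In the NRF2 list 4 of 21 were called higher and 3 lower, again near those shares. Nqo1 rose from 24.3 and 20.5 to 48.7 and 48.2 FPKM and Me1 from 11.6 and 11.3 to 29.3 and 29.8 FPKM, while both subunits of glutamate cysteine ligase, Gclc and Gclm, fell 2.2-fold and 2.35-fold.

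Transcripts of the 2-cell-like state, which a small share of ESCs enters, were rare in both cultures. Summed expected counts of the Zscan4 family, whose members are near copies and share reads, were 55 and 44 in −F and 5 and 1 in NB2i, against 1154 and 1208 in F and 2854 and 2851 in F2i. Zscan4f was not listed in either NB2i replicate and had 0.55 and 0.53 FPKM in −F, at least 6.49-fold lower. Of 20 genes tested 12 were called lower and 0 higher, beside 16.1% and 11.1% of all genes. Only 1 of those 12 had a mean of at least 1 FPKM in −F, and 6 of the 20 have a lower bound in place of a fold change. The list median was −3.68 as fitted and −0.84 with those genes at their bound.

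**Figure D3:**
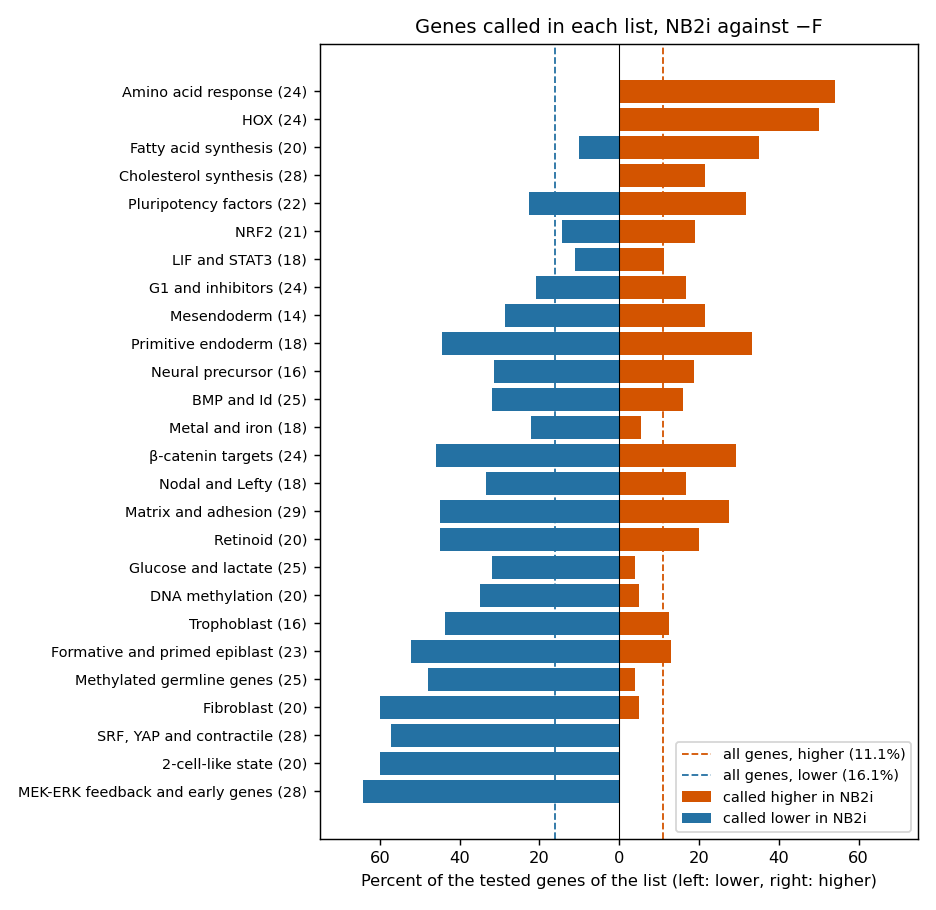
Percent of the tested genes of each of 26 lists that were called higher (orange, right) or lower (blue, left) in NB2i than in −F, with the number tested in brackets. Dashed lines are the shares over all genes, 11.1% higher and 16.1% lower, and the MEK-ERK list lies far to the left while the amino acid and HOX lists lie to the right.

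The difference between NB2i and −F was set against the difference between F2i and F, which share no sample. In F2i against F, 985 genes (6.44%) were called higher and 1070 (7%) lower. Of the 4152 genes called in NB2i against −F, 1465 were also called in F2i against F in the same direction, 102 in the opposite direction and 2585 were not called there. The difference of the differences itself was called for 2522 genes (16.5%), 897 positive and 1625 negative, at an adjusted p under 0.05 and at least 1 on the log2 scale. Of the 20 fibroblast genes tested, 13 were among the negative ones, with their sums in F and F2i given above, and the part of feeder RNA in the others was not tested. Medium, serum and coating changed in NB2i against −F and not in F2i against F.

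By list, the difference was unequal for 19 of 28 SRF and YAP genes, all negative, for 15 of 25 germline genes, all negative, and for 9 of 28 cholesterol genes, all positive. Over all 15287 genes tested, 897 were positive and 1625 negative, or 16.5% in either direction. Among the 28 ERK feedback genes 10 were negative and 2 positive. Egr1 was one of the positive ones, with log2 fold changes of −2.33 in NB2i against −F and −4.57 in F2i against F, a difference of 2.24 ± 0.14 (adjusted p = 1.39e-11). Dnmt3l had −4.98 in NB2i against −F and −1.02 in F2i against F, a difference of −3.96 ± 0.071 (adjusted p = 2.35e-20). Dazl was not called between NB2i and −F and rose by 1.74 in F2i against F, a difference of −1.86 ± 0.13 (adjusted p = 1.28e-10). Lefty1 fell in both, by log2 fold changes of −3.12 and −2.79 (difference −0.34 ± 0.088, adjusted p = 0.00338). Asns rose in both, with 1.85 and 1.26 (difference 0.59 ± 0.056, adjusted p = 1.83e-08). Neither difference reached 1 on the log2 scale.

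Some genes changed in opposite directions. Chac1 rose by 2.85 on the log2 scale in NB2i against −F and had −1.01 in F2i against F (difference 3.86 ± 0.12, adjusted p = 1.75e-16). Trh, the precursor of thyrotropin-releasing hormone and picked after its values were seen, had 98.5 and 93.9 FPKM in −F, 247 and 239.8 FPKM in NB2i, and means of 151 FPKM in F and 25.6 FPKM in F2i. Its log2 fold changes were 1.41 and −2.52 (difference 3.93 ± 0.072, adjusted p = 2.59e-20). Igf2 had a log2 fold change of −5.56 in NB2i against −F and 0.27 in F2i against F, and H19 had −6.05 and 0.28. Their means in F were 41.5 and 60.9 FPKM. Among the largest positive differences were Trpm1, with means of 0.275 FPKM in F and 4.47 FPKM in F2i, and Adh1, with 0.165 and 1 FPKM, set against the levels in −F and NB2i given above. Among the largest negative ones were Cnn1 and Myl9, the protease Prss23 and the collagen gene Col8a1. Means in F were 5.43, 21.2, 7.2 and 2.71 FPKM for these 4 and means in F2i were 13, 41.6, 16.4 and 5.49 FPKM.

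**Figure D4:**
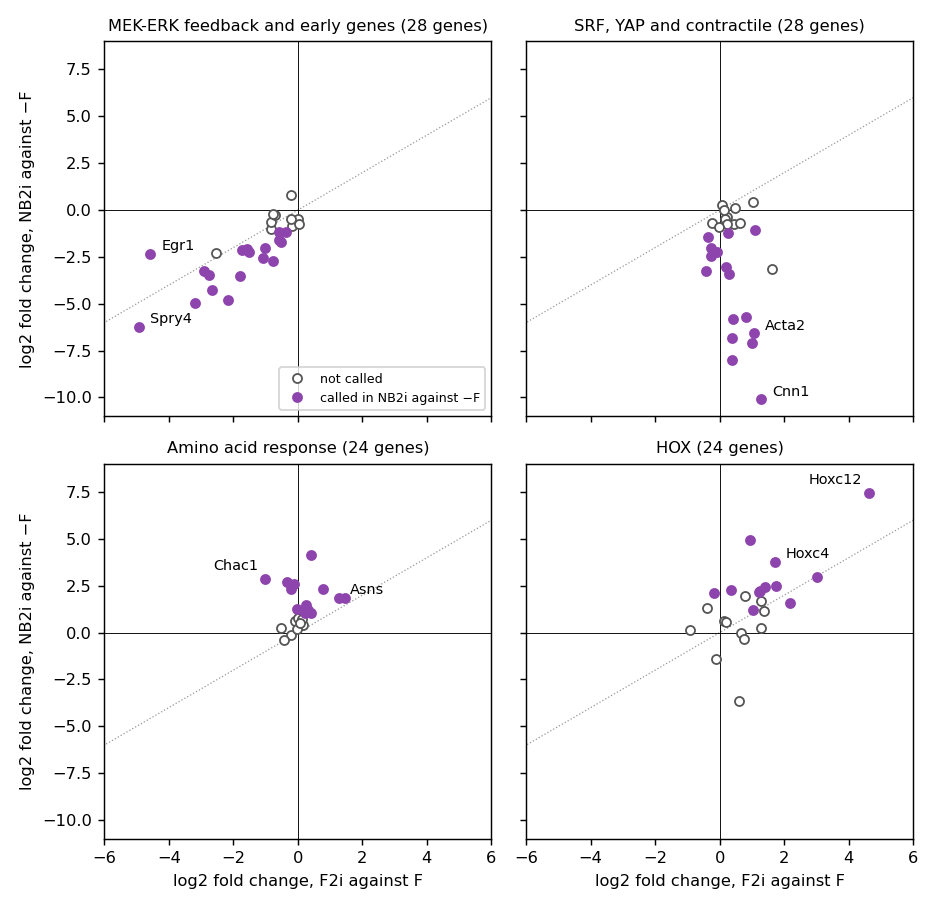
Log2 fold change of NB2i against −F (vertical axis) against that of F2i against F (horizontal axis) for the tested genes of 4 lists, filled where called in NB2i against −F; the dotted line marks equal values. ERK genes lie mostly in the lower left, and Chac1 (−1.01 and 2.85) lies in the upper left. Of the 28 SRF and YAP genes 16 are called lower in NB2i against −F, beside 16.1% of all genes.

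Genes were also grouped by chromosome, which the comparison did not use. The median log2 fold change was −0.171 on chromosome 8 (800 genes tested), where 61.4% of genes were below 0 against 48.5% on the other chromosomes. Medians of the other chromosomes, Y left out, were between −0.0788 and 0.129. Sample by sample, the median deviation of chromosome 8 genes from the mean of all 8 samples was 0.165 and 0.154 in −F. It was −0.00233 and −0.0181 in NB2i, −0.0188 and −0.034 in F, and −0.1 and −0.0851 in F2i. Both −F samples thus stood above the other 6 on this chromosome, and no sample deviated by more than 0.0967 on any other chromosome but Y. Of the genes named above, Dusp4, Acta1, Col4a1, Col4a2, Nqo1 and Sox1 lie on chromosome 8. Chromosome number was not measured in these files, and the chromosome 8 median stands for a 1.13-fold change. The paper counted chromosomes in metaphase spreads and reported more aneuploidy in ESCs without feeders than with them, without naming a chromosome. A link between those counts and the −F samples here was not tested.

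All 6 tested genes of chromosome Y were higher in NB2i than in −F and 3 were called, beside 11.1% of all genes called higher. Ddx3y, an RNA helicase, had 3.37 and 3.25 FPKM in −F and 15.7 and 16.5 FPKM in NB2i (log2 fold change 2.35 ± 0.067, adjusted p = 4.08e-18), and means of 4.92 FPKM in F and 9.87 FPKM in F2i. Kdm5d, a histone demethylase, had 0.65 and 0.67 FPKM in −F and 1.48 and 1.38 FPKM in NB2i, and Uty, another demethylase, had 3.22 and 3.18 FPKM in −F and 5.62 and 5.8 FPKM in NB2i. The first 2 were called and Uty was not. These genes were picked after their values were seen.

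**Figure D5:**
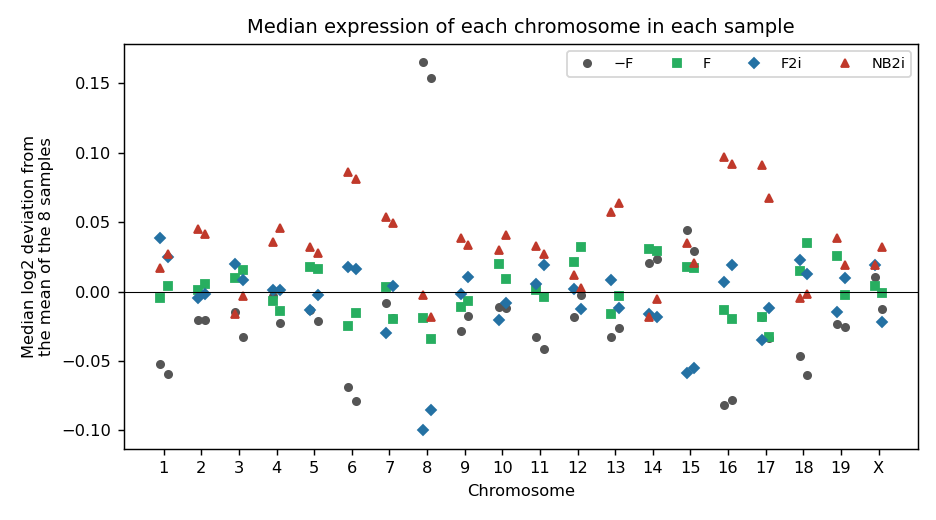
Median over genes of the log2 deviation from the mean of the 8 samples (vertical axis) on each chromosome but Y, 2 points per condition. On chromosome 8 the −F samples lie at 0.165 and 0.154, above the other 6.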

How the data were processed

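RNA-seq of 8 mouse ESC samples was used, 2 replicates each of −F, F, F2i and NB2i, grouped by their titles. Reads were aligned by the authors to mm10 with Bowtie2, both named in the submitters' processing notes, and they estimated gene levels with RSEM (versions not given in the sources used here). The deposited expected counts are RSEM estimates of reads per gene, with 29.5 to 30.0% of values not whole, and the authors also gave FPKM. The files list genes from 0.01 FPKM upward, and genes not listed were taken as 0. Totals were 20129641 to 20664488 expected counts, and intervals and floors cover counting error only. Whether the libraries keep strand was not given.

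Counts were rounded, and 15287 of 20278 genes entered the fit, those reaching 10 counts in 2 or more samples. The 8 samples were fitted together with edgeR 4.0.16 (R 4.3.3), using TMM and the quasi-likelihood test, for NB2i against −F, F2i against F and the difference of both differences. A call needs a Benjamini-Hochberg adjusted p under 0.05 and a 2-fold change. A gene with no count in one group is given against a floor of 3 counts per library, and one with 1 to 3 counts by its ratio of counts. Replicate 1 and 2 of −F and NB2i did not deviate together (r = −0.014 over 11953 genes, and −0.189 to 0.085 for all pairs of groups), and chi-square per degree of freedom between replicates was 3.546 in −F and 1.837 in NB2i. Alternatives used DESeq2 1.42.0, limma 3.58.1 on FPKM after adding a pseudocount of 1 or 0.1 and taking log2, other normalization, filters and thresholds, a replicate block and each sample left out. The fit was tested on simulated data.

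Genes were named by a rule: a set of anchor genes, up to 2 more of the largest rises and falls in each list at 1 FPKM or more, the 10 largest rises and falls at 5 FPKM or more, the 5 largest differences of FPKM each way and the 5 largest differences of differences each way. The 10 largest rises and falls were taken among called genes without overlap between the replicates of the 2 cultures. The text says where a gene was picked otherwise. Some genes that meet the rule are not reported here. The lists, the members and the tests were chosen with earlier results of these data known. Promoters are RefSeq sequences of GRCm38.p6, the build that mm10 names.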

Additional observations from a re-analysis of the deposited data

Results flagged for a closer look

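NB2i against −F differed from F2i against F in 897 genes with a positive and 1625 with a negative difference of the log2 fold changes, by edgeR's quasi-likelihood test of the difference itself (adjusted p under 0.05, at least 1 on the log2 scale). Medium, serum and coating changed in the first contrast and not in the second, so the difference is not one of 2i alone, and feeder RNA is present in the second.

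Among named genes, 8 were called in opposite directions in the 2 contrasts. Higher in NB2i than −F and lower in F2i than F were Chac1 and Trh, with differences of 3.86 and 3.93 on the log2 scale. The fall of Chac1 in F2i against F lay just past the 2-fold limit. Lower in NB2i than −F and higher in F2i than F were the contractile genes Acta2 (−7.62), Cnn1 (−11.4) and Myl9 (−8.10), the protease gene Prss23 (−8.24), the collagen gene Col8a1 (−8.07) and the 2-cell gene Zscan4f (−8.61). Cnn1, Col8a1 and Zscan4f had no count in NB2i, and Myl9 and Prss23 had 3 and 1, so the sizes of these differences depend on the prior count of the fit. Groups of 2 samples were not examined for samples standing apart.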

How the results depend on the processing

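Every alternative kept more genes lower than higher in NB2i. Counts outside 1.5 times the 1696 higher and 2456 lower came from limma on log2(FPKM + 1), with 880 and 1103, from the same without a filter, with 868 and 1098, and from 10 counts in every sample, with 1410 lower. A log2(FPKM + 1) scale shrinks changes of low genes, and the filter tests fewer of them. Of the 897 positive and 1625 negative differences of differences, glmTreat against a log2 fold change of 1 left 422 and 865, limma on log2(FPKM + 1) 450 and 572, without a filter 440 and 563, and 10 counts in every sample left 922 negative. With limits of 2 and 0.05 FPKM, 15 genes were on in −F and off in NB2i and 6 the reverse, in place of 75 and 38. Leaving out each sample in turn gave 1608 to 1702 higher and 2313 to 2443 lower, and 828 to 900 positive and 1484 to 1586 negative differences. DESeq2 called 1536 and 2327, and centring each chromosome on its median, chosen after seeing the data, 1655 and 2466. The replicate block gave 1692 and 2441 and changed no call of a named gene. The median of all genes moved at most to −0.052, without TMM. Of 2967 values of 158 named genes under alternatives, 44 lost their call and 4 changed sign, all of Slc2a3, which was not called: −0.00324 without TMM, and −0.00332, −0.00333 and −0.00332 in the 3 limma settings. The calls lost were in 15 genes, most with log2(FPKM + 1). Uhrf1 lost its call in 9 settings, with 0.998 in DESeq2 and 0.977 without −F replicate 1. Lamb1 lost it without −F replicate 2 (−0.961), F replicate 2 (−0.996) or NB2i replicate 2 (−0.946), and Rpl10l without −F replicate 2 (0.996) or NB2i replicate 1 (0.893). Of 494 list medians under alternatives, 142 moved by more than the spread between replicates and 10, in 5 lists, changed sign. The median of HOX genes, 1.63 as fitted, was 0.577 without a filter on low counts. With limma on log2(FPKM + 1) it was 0.522, and 0.0443 in the same without a filter. With 10 counts in every sample the median log2 fold change was −0.848 for SRF and YAP genes, −0.606 for germline genes, −1.01 for formative genes and −0.705 for 2-cell genes, and with limma on log2(FPKM + 1) it was −0.926, −0.326, −0.938 and −0.131, with −1.17 for ERK genes.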
